A study of Homo sapiens with 6 samples.

Results

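Small nuclear and nucleolar RNA genes were those in the promoter lists whose symbol began with RNU, RN7S, SNORD, SNORA, SNAR or SCARNA, or was RMRP or RPPH1, and they held 56 of the 5207 promoter rows listed for N-Myc, JMJD6 or both. They were 55 symbols at 46 separate loci, since RNU6-2 was listed on chromosomes 14 and 19 and 7 loci held 17 overlapping rows. The lists came from chromatin immunoprecipitation followed by sequencing (ChIP-seq) in CHP-134 cells, a neuroblastoma line with MYCN amplification. The cells carried no other agent in the labels, and 3 samples were precipitated with an N-Myc antibody after formaldehyde cross-linking and 3 with a JMJD6 antibody after DSG (disuccinimidyl glutarate) and formaldehyde. A promoter row spans 1 kb on each side of a RefSeq start site and was listed by the authors where it met a peak found in all 3 replicates of that protein. The lists give positions only, so no height, read depth or spread between replicates stands behind a listed promoter, and a difference between the N-Myc and JMJD6 lists cannot be told apart from the difference in cross-linking. Of 9 markers of adrenergic neuroblastoma, 8 (all but DBH) had a promoter, typical enhancer or super-enhancer listed for N-Myc, but only 1 (GATA2) a promoter. The same share over all genes was not computed, so this look-up does not check the labelled cell type.

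N-Myc is a transcription factor that binds DNA with MAX, most tightly at the E-box CACGTG. JMJD6 is a jumonji domain protein that hydroxylates lysine and has been reported to act on histone arginine. The small RNAs of this set are made in different ways. The U RNAs of the spliceosome, the RNase P and MRP RNAs (RPPH1 and RMRP) and the SRP RNA of the signal recognition particle are transcribed from promoters of their own, some by RNA polymerase II and others (the U6, U6atac, RNase P, MRP and SRP RNAs) by RNA polymerase III. Most nucleolar RNAs are instead cut out of the introns of a host gene. Many box C/D RNAs (SNORD), though not all, guide methylation of ribosomal RNA, and many box H/ACA RNAs (SNORA) guide its pseudouridylation. Cajal body RNAs (SCARNA) guide the same changes on the U RNAs.

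All 56 rows were in the N-Myc list and 3 of them, RNU11, RNU12 and RNU6-2 on chromosome 19, were also in the JMJD6 list. The rows were chosen by their being listed, that is, by the overlap of the promoter with a peak, so these counts describe the choice. They comprised 31 box C/D, 10 box H/ACA and 5 Cajal body RNAs, 6 rows of U RNAs, RMRP and RPPH1, and 2 SRP RNAs (RN7SL3 and the pseudogene RN7SL832P). No SNAR row was listed. The rows met 51 distinct N-Myc peaks, and SNORD12 was the 1 row that met none, as did 131 of the 5114 N-Myc rows as a whole. The peak edges closest to the limit of 1 kb lay 914 bp (SNORD24), 906 bp (SNORD58A) and 890 bp (SNORD49A) from the start inside it. Just outside, among annotated genes of the same families, they lay 1003 bp (SNORA71D), 1007 bp (SNORD2) and 1094 bp (SNORA10) away.

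The promoters of the U RNAs carried every JMJD6-listed row of the set. RNU11 and RNU12 encode the U11 and U12 RNAs of the minor spliceosome, which removes a rare class of introns, and RNU6-2 encodes a copy of U6, at the catalytic centre of the major spliceosome. Of the small RNA rows in the N-Myc list, 3 of 56 (5.36%, exact 95% interval 1.12 to 14.9) were also in the JMJD6 list, against 1.64% of all N-Myc-listed promoters, a value inside that interval. In the other direction, 3 of 3 JMJD6-listed rows were in the N-Myc list (interval 29.2 to 100%), against 47.5% of all JMJD6-listed promoters. Within the RNU rows, 3 of 6 were listed for both proteins (50%, interval 11.8 to 88.2), and none of the 50 other rows was. RNU11 and the chromosome 19 RNU6-2 lie 902 and 960.5 kb from an unsequenced stretch of the reference of 50 kb or more. Without rows closer than 1 Mb to such a gap 1 of 45 small RNA rows (2.22%), RNU12, was listed for both, against 1.53% of all N-Myc-listed promoters away from gaps.

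The reference sequence of the RNU11 and RNU12 promoters, from 250 bases before the start to 50 bases from it (GRCh37, 5′ to 3′ on the strand of the gene), is shown because they are small RNA promoters listed for both proteins. Capitals mark the octamer ATTTGCAT, the binding sequence of OCT1 in the distal element of many U RNA promoters.
RNU11, chr1:28974861-28975160, plus strand: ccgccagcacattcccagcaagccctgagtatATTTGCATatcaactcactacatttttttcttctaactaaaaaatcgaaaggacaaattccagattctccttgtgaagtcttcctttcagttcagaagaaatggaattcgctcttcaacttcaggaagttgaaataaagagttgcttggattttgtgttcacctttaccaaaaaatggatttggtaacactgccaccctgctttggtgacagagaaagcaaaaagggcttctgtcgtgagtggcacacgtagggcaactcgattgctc
RNU12, chr22:43011000-43011299, plus strand: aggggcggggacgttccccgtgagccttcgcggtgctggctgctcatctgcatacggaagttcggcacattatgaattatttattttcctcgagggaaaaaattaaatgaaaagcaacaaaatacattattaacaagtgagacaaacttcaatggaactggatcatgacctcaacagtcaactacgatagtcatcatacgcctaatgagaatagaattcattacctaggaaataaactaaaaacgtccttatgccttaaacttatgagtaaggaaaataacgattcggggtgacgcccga
RNU11 held the octamer 218 bp before its start. RNU12 and the chromosome 19 RNU6-2 held no exact match in this window.

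At each of the 3 promoters the interval in the JMJD6 list was the same, base for base, as the interval in the N-Myc list. How the same edges came to stand in both lists was not tested, so these widths are not separate measurements for JMJD6. The RNU11 interval was 1800 bp wide (chr1:28974290-28976089), wider than 99.9% of the 3550 N-Myc peaks in listed promoters and than 97.2% of the 561 JMJD6 peaks, and its centre lay 79 bp downstream of the start. The RNU12 interval was 1068 bp wide (chr22:43011037-43012104), with its centre 321 bp downstream of the start. The RNU6-2 interval was 677 bp wide, with its centre 105 bp downstream. All 3 intervals covered the start site, and none held CACGTG. The RNU12 and RNU6-2 intervals also met the listed promoter row of another gene, POLDIP3 and TMEM259, without covering its start. The JMJD6 listing of these promoters is thus not particular to the U RNA gene. At RNU6-2 94.2% of the 75-base stretches in the interval occur once in the reference, the lowest share of the 51 small RNA peaks, of which 48 were unique throughout.

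The remaining genes with promoters of their own were in the N-Myc list alone. RPPH1 (the RNase P RNA, which matures the 5′ ends of transfer RNAs) had a peak of 550 bp whose centre lay 24 bp upstream of its start, and this peak also covered the start of PARP2. RMRP (the RNA of RNase MRP, which cuts precursor ribosomal RNA) had a peak of 824 bp centred 256 bp downstream. RN7SL3 had a peak of 419 bp centred 77 bp upstream, and RN7SL832P a peak of 571 bp centred 81 bp upstream that also covered the start of NOL10. These 4 peaks covered the start site of the row. The annotated start of RN7SL832P differs from that of its row and lies 131 bp from the peak.

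The other 3 peaks of this kind did not reach the start. The peak at RNU4ATAC (the U4atac RNA of the minor spliceosome) began 4 bp downstream of the start and was 834 bp wide. The peak at RNU6ATAC, its partner, was 290 bp wide and centred at −305 bp. The peak at the RNU6-2 row on chromosome 14, which the annotation names RNU6-8, was 340 bp wide and centred 675 bp upstream. Over the 10 rows with promoters of their own, the peak covered the start of the row in 7, with RN7SL832P among them. The median centre lay 27.5 bp downstream (range −675 to 421).

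Sequence elements of U RNA promoters were searched in all rows. The octamer was found on either strand within 250 bp before the start in 7 of 56 rows (12.5%, interval 5.18 to 24.1), against 1.08% of all listed promoters. It stood in 5 of the 10 genes with promoters of their own (RNU11, RNU4ATAC, RMRP, RPPH1 and the chromosome 14 RNU6-2) and in 2 of 44 rows of nucleolar or Cajal body RNAs inside host genes (SNORD58A and SNORD12B). The letters TATA, on the strand of the gene 40 to 15 bp before the start, were found in 4 of 56 rows (7.14%, interval 1.98 to 17.3) against 2.27% of all listed promoters, 3 of them at genes with promoters of their own. The letters ACTACAA, present in some binding sites of ZNF143 (the SPH element), were found in 1 of 56 rows (1.79%, SNORD50B) against 4.51%. Other forms of this element were not searched, so a row without ACTACAA is not shown to lack it. In these rows no match of one motif overlapped a match of another. The 3 promoters with TATA are shown from 100 bases before the start to 20 bases from it (GRCh37), with TATA and the octamer in capitals.
RPPH1, chr14:20811551-20811670, minus strand: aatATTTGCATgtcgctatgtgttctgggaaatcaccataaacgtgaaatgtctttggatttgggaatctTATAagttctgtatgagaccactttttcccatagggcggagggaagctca
RMRP, chr9:35657996-35658115, minus strand: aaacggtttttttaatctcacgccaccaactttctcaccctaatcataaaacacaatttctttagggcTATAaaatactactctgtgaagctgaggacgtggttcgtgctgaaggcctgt
RNU6-2, chr14:32672456-32672575, minus strand: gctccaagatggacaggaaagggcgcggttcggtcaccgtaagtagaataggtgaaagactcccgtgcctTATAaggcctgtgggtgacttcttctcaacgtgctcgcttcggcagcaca
TATA began 30 bp before the start at RPPH1 and at RNU6-2 and 32 bp before it at RMRP. The octamers of RMRP and RNU6-2 lay farther upstream than the stretch shown. Each of these genes is of a kind that RNA polymerase III transcribes.

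**Figure D1:**
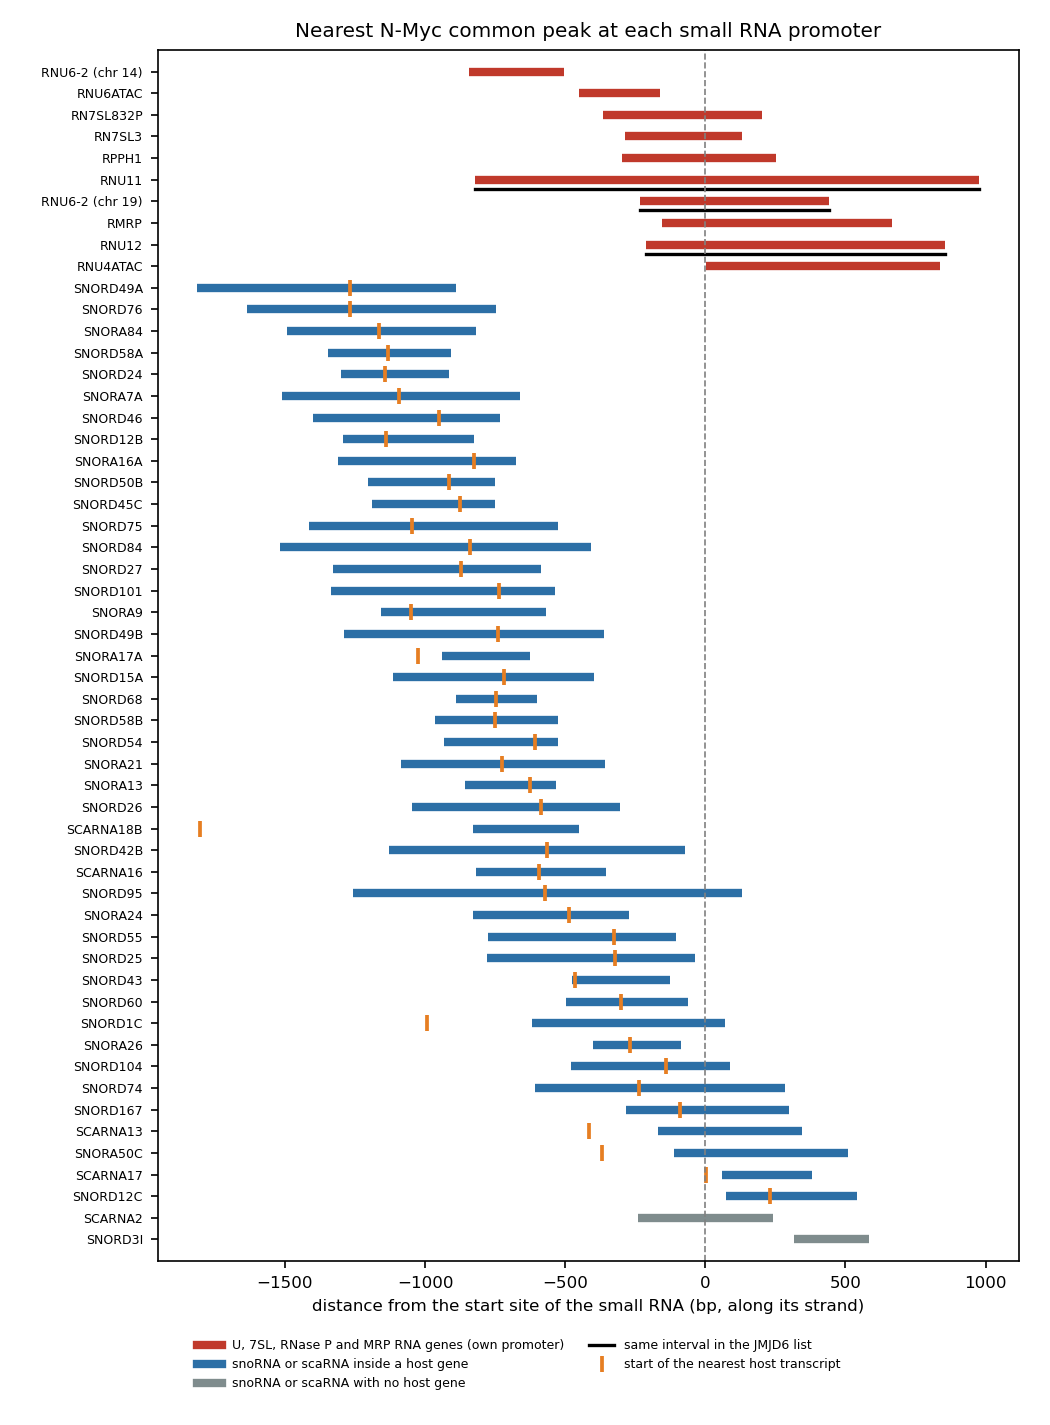
The nearest N-Myc peak at each of 55 small RNA rows, as a bar along the distance from the start site of the small RNA in bp (negative upstream), coloured by kind of gene, with a black line under the 3 intervals also in the JMJD6 list and a tick at the start of the nearest host transcript. Of the bars of host-embedded RNAs, 38 of 43 are centred upstream of the small RNA, and 37 of 43 cover the tick.

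Most of the set lay inside other genes. Of the 46 nucleolar and Cajal body RNA rows, 44 lay within an annotated gene on the same strand, SCARNA2 and SNORD3I did not. None of the 46 was in the JMJD6 list, a share near the 1.64% of all N-Myc-listed promoters, from which nothing is read. At the 43 hosted rows with a peak, the peak covered the start of the small RNA in 7, and its centre lay at a median of −728 bp from it (range −1352 to 308), where negative values are upstream. The same peaks covered a start of the host gene in 37 of 43, with their centres at a median of 5 bp from it, whereas the small RNAs themselves started a median of 737 bp downstream of it. With any peak of the row counted, since 4 hosted rows met more than 1, it was 40 of 43. The host start was taken as the annotated transcript start nearest to the peak, which favours short distances. By a stricter count, the start of a listed promoter of the host itself, it was 28 of 43 by current symbol. With the former symbols of SNHG29 and IARS1 counted too, it was 31 of 43. Over the whole set the nearest peak covered the small RNA start in 15 of 55 rows (27.3%, interval 16.1 to 41.0), against 53.4% of all N-Myc-listed promoters with a peak, and the median centre was at −600 bp (interval −745 to −280) against −60 bp.

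The hosts were 34 genes, 17 of them long non-coding RNA genes with 24 of the small RNAs with a peak, 11 ribosomal protein genes with 13, and 6 other protein-coding genes with 6. By current or former symbol, 33 of the 34 hosts, all but ACAP3 (host of SNORD167), had a promoter in the N-Myc list themselves, against 17.0% of all protein-coding symbols. The 17 long non-coding hosts are outside this protein-coding background. The hosts were reached through small RNA rows chosen for an N-Myc peak, so the count of 33 follows in large part from the choice. None of the 34 was in the JMJD6 list, and since 1.64% of all N-Myc-listed promoters were, nothing is read from this 0.

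Among the non-coding hosts, the peak at GAS5, whose spliced RNA is best known as a growth-arrest transcript, was 890 bp wide, covered the GAS5 start and the start of its divergent neighbour ZBTB37, and was the peak of SNORD74, SNORD75 and SNORD76. Their starts lay 238, 1045 and 1268 bp into GAS5, and the start of SNORD74 was the only one of the 3 under the peak. At SNHG1 a peak of 743 bp over the starts of SNHG1 and SLC3A2 served SNORD25, SNORD26 and SNORD27, which began 322, 587 and 870 bp into the host. At SNHG29, listed under its former symbol LRRC75A-AS1, a peak of 926 bp served SNORD49A and SNORD49B. At ZFAS1 a peak of 467 bp lay 75 to 541 bp downstream of the SNORD12C start and also met the row of SNORD12B, but not that of SNORD12. SNHG25 was the only host with a separate peak nearest to each of its RNAs, one of 568 bp over the starts of SNHG25 and SNORD104 and one of 623 bp over the start of SNORA50C. The SNORA50C row met both of these and another, of 501 bp.

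A single small RNA was listed at SNHG5 (SNORD50B), SNHG7 (SNORA17A), SNHG8 (SNORA24), SNHG10 (SCARNA13), SNHG12 (SNORA16A), SNHG15 (SNORA9), SNHG16 (SNORD1C), SNHG19 (SNORD60), SNHG20 (SCARNA16), SNHG22 (SCARNA17), DANCR (SNORA26) and EPB41L4A-AS1 (SNORA13). At SNHG7 and SNHG22 no host start lay under the peak. The SCARNA13 row met 3 peaks and the SNORD1C row 2. In both, the peak nearest to the small RNA covered its start, and another peak of the row covered a start of the host, SNHG10 or SNHG16.

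At the ribosomal protein genes, the peaks of all 13 small RNAs covered a host start. They included SNORD58A and SNORD58B in RPL17, SNORD15A in RPS3, SNORD24 in RPL7A, SNORD42B in RPL23A, SNORD43 in RPL3, SNORD54 in RPS20, SNORD68 in RPL13, SNORD101 in RPS12, SNORA7A in RPL32 and SNORA21 in RPL23. The centre of these peaks was closest to the host start at RPL13 (1 bp) and farthest from it at RPS12 (199 bp upstream). The 13 rows had 11 distinct peaks, none of which reached the start of the small RNA.

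The 6 other hosts were RACK1 (SNORD95), a ribosome-bound scaffold, DDX39B (SNORD84), an RNA helicase of splicing and export, IARS1 (SNORA84), an aminoacyl-tRNA synthetase listed as IARS, RABGGTB (SNORD45C), UCHL5 (SCARNA18B) and ACAP3 (SNORD167). The peak of SCARNA18B lay 1161 bp inside UCHL5 and covered neither start, whereas the other 5 covered a host start.

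The peaks of the set varied in width from 235 to 1800 bp, with a median of 560 bp (interval 456 to 636) against 452 bp (443 to 460) for all N-Myc peaks in listed promoters. After RNU11, the widest were those of SNORD95 in RACK1 (1389 bp), SNORD84 in DDX39B (1109 bp), RNU12 (1068 bp) and SNORD42B in RPL23A (1054 bp). Genes with promoters of their own had a median of 624 bp and hosted RNAs 560 bp. Their median GC content was 50.5% and 56.9%, against 58.3% for all N-Myc peaks in listed promoters. In total 41 of the 51 peaks also met a promoter row of a gene outside the set, and were shared with another listed promoter in that sense.

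**Figure D2:**
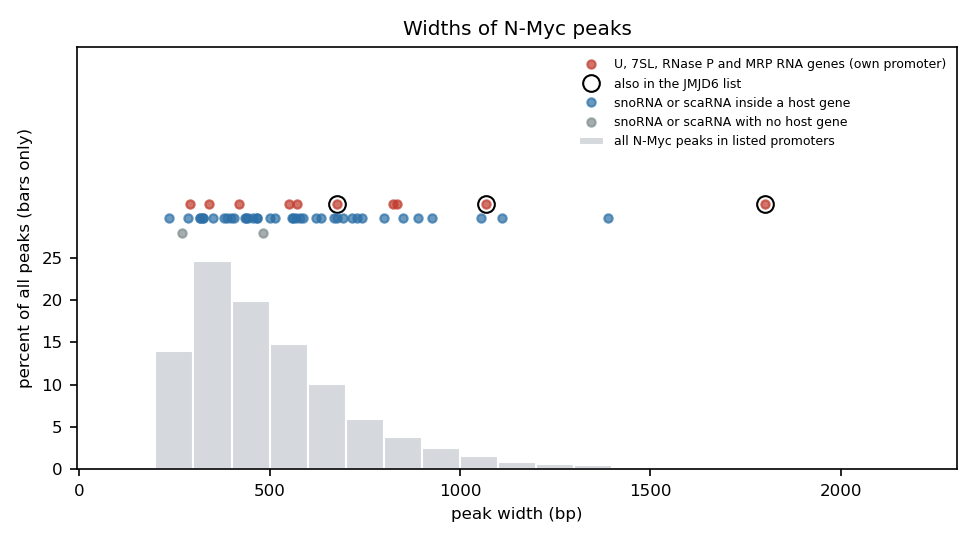
Widths of the 51 N-Myc peaks at small RNA promoters in bp, as points in a row for each kind of gene (the height of a row has no scale), above bars that give the percent of all 3550 N-Myc peaks in listed promoters per 100 bp of width. The 3 circled peaks, also in the JMJD6 list, are 677, 1068 and 1800 bp wide.

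Canonical E-boxes were found at a share near that of N-Myc promoter peaks at large. CACGTG, a palindrome that reads the same on both strands, was present in 16 of 51 small RNA peaks (31.4%, interval 19.1 to 45.9), against 36.9% of all N-Myc peaks in listed promoters. With CACGCG counted too, on both strands, it was 29 of 51 (56.9%), against 56.9%. The motif was in 14 of 39 peaks at hosted RNAs (35.9%, interval 21.2 to 52.8) and in 1 of 10 at genes with promoters of their own (10%, interval 0.253 to 44.5), RMRP, where it lay 102 bp downstream of the start. The intervals of these shares overlap. A second or further E-box was found in 5 peaks.

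E-boxes of 3 hosts and of RMRP are printed with 15 bases on each side (GRCh37, strand of the small RNA), with CACGTG in capitals. They are examples of pairs within 1 peak, the site nearest to a small RNA start and the 1 site at a gene with its own promoter. The pairs at ZFAS1 and SNHG15 and the other site in the same SNHG25 peak are not shown.
GAS5, first site, chr1:173836697-173836732, minus strand: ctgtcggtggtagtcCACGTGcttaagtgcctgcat
GAS5, second site, chr1:173837311-173837346, minus strand: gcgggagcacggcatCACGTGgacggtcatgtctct
SNHG29, first site, chr17:16341967-16342002, plus strand: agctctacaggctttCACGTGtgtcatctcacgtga
SNHG29, second site, chr17:16341981-16342016, plus strand: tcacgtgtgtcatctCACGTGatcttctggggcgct
SNHG25, chr17:62223452-62223487, plus strand: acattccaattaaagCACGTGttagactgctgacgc
RMRP, chr9:35657896-35657931, minus strand: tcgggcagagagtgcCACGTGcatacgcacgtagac
The GAS5 sites lay at 169 and −445 bp from the SNORD74 start. The SNHG29 sites lay 12 and 2 bp from the centre of the peak. The SNHG25 site shown lay 32 bp downstream of the SNORD104 start and was the only E-box within 50 bp of a start in the set.

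The regions around the promoters were mostly listed as enhancers, as those of N-Myc-listed promoters were as a whole. A typical enhancer was listed at the peaks of 49 of the 55 rows with a peak, against 80.5% of all N-Myc-listed promoters with a peak. The enhancer lists hold regions kept for overlapping a peak of the protein, so nothing is read from this count. The peaks of 4 of these 55 rows lay in a super-enhancer, 3 of them sharing 1 peak, against 2.17% of all N-Myc-listed promoters with a peak. SNORD25, SNORD26 and SNORD27 lay in one of chr11:62597955-62630283, listed for both proteins, which held 4 N-Myc peaks and 1 JMJD6 peak. The JMJD6 peak was not theirs but the one at RNU2-2P, described next. SNORD1C lay in one of chr17:74535367-74555361, listed for N-Myc only.

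Genes of the same families were also sought in the annotation (GENCODE version 44 on GRCh37), since a small RNA gene without a row in the promoter lists could still lie at a peak. Of 3861 such genes, 2995 had symbols that mark pseudogenes. An N-Myc peak lay within 1 kb of the start of 79 of the 3861 (2.05%, interval 1.62 to 2.54), 30 of them with such symbols. A JMJD6 peak did so at 15 (0.389%), 7 of them with such symbols. Without symbols that mark pseudogenes it was 49 of 866 (5.66%) for N-Myc and 8 of 866 (0.924%, interval 0.400 to 1.81) for JMJD6, against 16.5% and 0.615% of protein-coding genes. RN7SK has 2 entries in the annotation, both at the same N-Myc peak, and counts as 2 genes in these shares. Of the well-known genes looked up by name, RNU2-1, RNU11, RNU12, RN7SL1, RPPH1 and SCARNA2 are not in this annotation under these symbols and are not counted here. They are not the only ones left out. Further genes of the set, among them SNORD74, SNORD25 and SNORA24, had an N-Myc peak but no annotated small RNA start within 100 bp, and are not counted either. The N-Myc shares of the annotated small RNA genes thus leave out part of the small RNA genes at peaks.

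Of the 22 genes with RNU symbols that do not mark a pseudogene, 11 had an N-Myc peak within 1 kb (50%, interval 28.2 to 71.8) and 6 a JMJD6 peak (27.3%, interval 10.7 to 50.2), of which 4 and 1 were rows of the set. Both intervals lie above the shares of protein-coding genes, which include genes that these cells may not express, and expression was not measured here. Of the annotated nucleolar RNA genes, 7 of 399 box H/ACA (1.75%) and 23 of 390 box C/D (5.90%) had an N-Myc peak. A JMJD6 peak lay at 0 and 2 of them. The annotated genes matched only 5 and 19 rows of the set, which holds 10 and 31 rows of these kinds. The annotation thus misses part of the nucleolar RNAs at peaks, and nothing is read from the difference to the U RNA genes.

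Of the 15 annotated genes with a JMJD6 peak within 1 kb, 13 had RNU symbols and 14 had no row in the JMJD6 promoter list. The peak lists gave one interval for both proteins at RNU1-1 (2328 bp wide), RNU1-2 (1209 bp), RNU5A-1 (901 bp), RNU5B-1 (1533 bp) and RNU5E-1 (1703 bp), the genes of the U1 and U5 RNAs of the major spliceosome. The same held for RNU2-2P, a U2 gene named as a pseudogene (1610 bp), for RNU5A-8P (1432 bp) and RNU2-59P (295 bp), and for the box C/D genes SNORD118 (the U8 RNA, 769 bp) and SNORD3A (a U3 gene, 290 bp), which have promoters of their own. RNU1-60P, RNU4-71P, RNU5E-4P and RNU6-239P, all named as pseudogenes, had a JMJD6 peak that was not in the N-Myc list.

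The reads behind some of these intervals may not be placed with certainty. Of the 75-base stretches in the interval, 66.1% occur once in the reference at RNU1-1, 78.5% at RNU1-2 and 20.8% at SNORD3A, while RNU5B-1, RNU5E-1, RNU2-2P and SNORD118 were unique throughout. RNU1-1, RNU1-2 and RNU6-2 lie near an assembly gap. The part of these properties in the JMJD6 listing was not tested.

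Other well-known genes had an N-Myc peak alone or none. The 7SK gene RN7SK, whose RNA holds back the elongation factor P-TEFb, lay under an N-Myc peak (chr6:52859878-52861145), as did RNU7-1, whose U7 RNA takes part in processing histone mRNA, RNU5F-1 and SNORD13, and none of these had a JMJD6 peak within 1 kb. The U4 genes RNU4-1 and RNU4-2, the U6 gene RNU6-1 and the SRP gene RN7SL2 had no peak of either protein within 1 kb, and their nearest N-Myc peaks were 24062, 25396, 35169 and 8649 bp away.

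**Figure D3:**
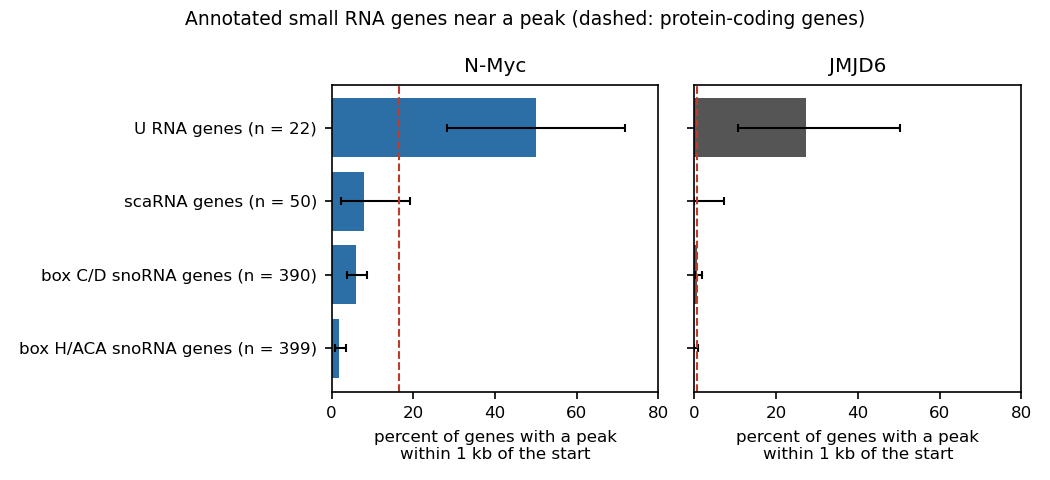
Percent of annotated small RNA genes with an N-Myc peak (left) or a JMJD6 peak (right) within 1 kb of the start, without pseudogene symbols, with exact 95% intervals as error bars and the share of protein-coding genes as a dashed line. U RNA genes reach 50% for N-Myc and 27.3% for JMJD6, against 16.5% and 0.615%. Small RNA genes missing from the annotation are not counted.

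The protein-coding genes that make and package these RNAs were looked up as well, in 9 lists of 89 genes. An N-Myc-listed promoter was present at 45 of 89 (50.6%, interval 39.8 to 61.3), against 17.0% of all protein-coding symbols, a background that again counts genes whether expressed or not. A JMJD6-listed promoter was present at 1 of 89 (1.12%), INTS9, against 0.606%.

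RNA polymerase III subunits were listed for N-Myc in 9 of 11 cases, among them POLR3A and POLR3B, which form its catalytic core, and POLR3G. The exceptions were POLR3F and POLR3GL. Proteins of box C/D and H/ACA particles were listed in 13 of 17, among them NOP56 and NOP58 of the C/D core and NHP2, NOP10 and GAR1 of the H/ACA core, but not FBL, the methyltransferase, or DKC1, the pseudouridine synthase. Neither promoter list has a row on chromosome X, where DKC1 and GEMIN8 lie, so these genes could not have been listed. Integrator, the complex that cuts the 3′ ends of U RNAs, was listed in 7 of 14.

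None of the 5 subunits of SNAPc, the complex that binds U RNA promoters, was listed. Of 7 further factors for their transcription, POU2F1 (OCT1) and ZNF143 were listed. Listed shares in the other lists were 6 of 15 for cap and assembly factors such as TGS1 and GEMIN5, 3 of 10 for RNase P and MRP proteins, 3 of 6 for signal recognition particle proteins and 2 of 4 for 7SK proteins (MEPCE and HEXIM1).

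**Figure D4:**
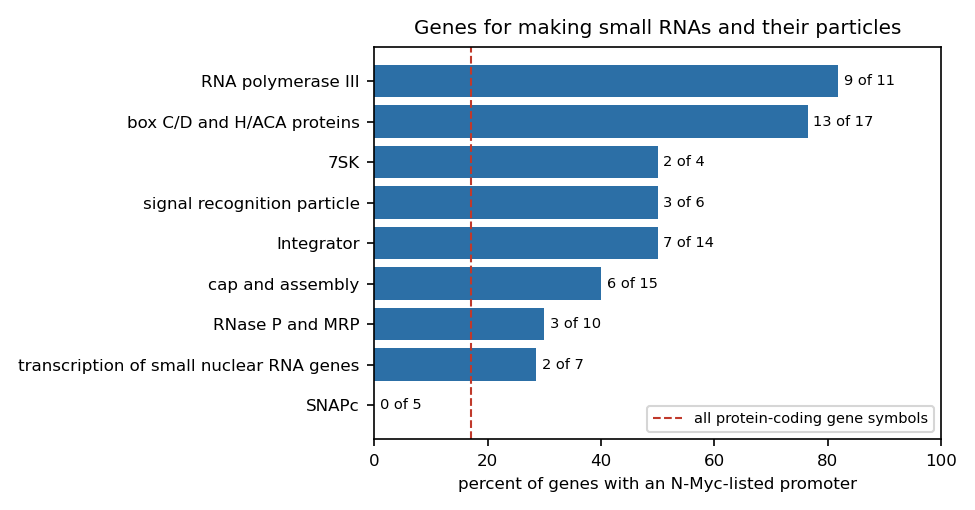
Percent of genes with an N-Myc-listed promoter in each of 9 lists of genes for making small RNAs and their particles, with the count beside each bar and the share of all protein-coding symbols, 17.0%, as a dashed line. RNA polymerase III (9 of 11) and box C/D and H/ACA proteins (13 of 17) have the highest shares and SNAPc (0 of 5) the lowest.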

How the data were processed

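Per the labels and the methods of the study, the authors aligned reads to hg19 with BWA, called peaks in each replicate with MACS2 (version 2.1.1.20160309) against input DNA and kept peaks found in all 3 replicates. The deposited values are positions in bp (another unit than counts or signal), pooled over replicates, in 12 lists. The study states only a minimum read depth for its samples and the lists carry none, so intervals cover the number of promoters or peaks only.

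Promoter rows and peaks were matched by an overlap of at least 1 bp, and the row centre was taken as the start site. Hosts came from GENCODE 44 on GRCh37: 33 of 56 rows lay within 100 bp of an annotated small RNA start, 30 of them with the same symbol. Sequences were read from GRCh37. Shares have exact (Clopper-Pearson) 95% intervals and medians order-statistic ones, and no test was run because no list has values per sample. Code was checked on simulated intervals, motifs and repeats (Python 3.11.15, SciPy 1.17.1, pysam 0.24.0, numpy 2.4.6, matplotlib 3.10.9).

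The genes and lists were chosen with earlier results of these data known. The rule for genes described singly took JMJD6-listed, RNU, RN7S, RMRP and RPPH1 rows, super-enhancer members, the 5 widest peaks, loci with most rows, E-boxes within 50 bp of a start and a fixed set of well-known genes. Some items that this rule covers are not reported here. Alternatives covered loci, symbols, windows, overlap, gaps, width, motifs and pseudogenes.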

Additional observations from a re-analysis of the deposited data

How the results depend on the processing

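Of 41 alternative values, 37 stayed within 1.5 times the count or within the interval of the value reported. With a peak required within 500 bp of the start, 34 of the 56 small RNA promoters remained listed for N-Myc. Counting CACGTG or CACGCG raised the share of peaks with an E-box to 56.9%. The share of annotated small RNA genes with an N-Myc peak fell to 1.32% with 500 bp on each side and was 5.66% without pseudogene symbols, by the construction of these alternatives (a smaller window, fewer genes). The share also listed for JMJD6 was 2.22% without rows near assembly gaps, where 1 row remained, and 12.5% (1 of 8) among rows with no other gene start in the window. An alternative chosen after seeing the data, peaks with at least 50% of their 75-base stretches unique, left the E-box share at 31.4% and gave 5.45% for JMJD6. No paired analysis was possible because the lists hold no value per sample, and for the same reason leaving out each replicate in turn could not be run. In place of a stricter threshold, peaks wider than the median of their list were used. Depth sets which promoters are listed, and a promoter missing from the short JMJD6 list is not shown to lack JMJD6.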
